A study of Komagataella phaffii GS115 with 12 samples.

Results

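The G12-CBS strain at 72 h of methanol induction was compared with the DS56 strain at the same time, on 3 arrays each, which are 6 of the 12 arrays measured. The arrays were chosen by their sample titles, and all 2390 rows of the deposited table were read. Both strains derive from GS115, a strain of the methanol-using yeast Komagataella phaffii (Pichia pastoris), and both carried DS56, a recombinant methionine adenosyltransferase gene. G12-CBS had in addition the weak promoter G12, placed to lower the expression of CYS4. The comparison asks how the transcriptome of the producer strain carrying this promoter differed from that of DS56.

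Cultures of both strains grew in BSM medium and received L-methionine after 24 h on methanol. The remaining 6 arrays held the empty-vector strain GS115/3.5K at 72 h, fed in the same way, and G12-CBS at 24 h of induction, before any feeding. They entered the model for the spread between replicates, and their levels are given only as a description. The labels call the 3 samples of each group separate cultures, and do not say how many clones stand behind a strain. S-adenosyl-L-methionine (SAM) is the product of both strains, and the labels class each as high-producing at 72 h.

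Methionine adenosyltransferase joins methionine and ATP to form SAM, the methyl donor of the cell. Each methyl transfer leaves S-adenosylhomocysteine, which is split to homocysteine and then either remethylated to methionine or drawn into transsulfuration. CYS4 encodes cystathionine beta-synthase, which takes the transsulfuration branch towards cystathionine, cysteine and glutathione.

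Rows are named by systematic identifiers of Saccharomyces cerevisiae genes, and all 2390 occur in the S. cerevisiae gene table, against 0 in the K. phaffii table of 5040 genes. The files give no symbols, so the symbols and roles below are those of the S. cerevisiae gene with that name. Whether a row's signal comes from the K. phaffii counterpart was not determined, and levels are compared only within a row. Rows of near-identical S. cerevisiae copies cannot be taken as independent genes. CYS4 itself has no row among the 2390 read, so its lowering was not checked.

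Values are on the log2 scale, and a row was called when limma's adjusted p was under 0.05. A difference is the G12-CBS mean minus the DS56 mean in log2 units, so a difference of 1 is 2-fold. Replicate arrays of G12-CBS at 72 h lay further apart than those of DS56. The median SD per row was 0.177 in G12-CBS and 0.112 in DS56 (n = 3 each). It was 0.185 in the empty-vector strain and 0.0948 in G12-CBS at 24 h. Array medians ran from 6.59 to 6.62 in G12-CBS and from 6.65 to 6.66 in DS56. They ran from 6.60 to 6.62 in the empty-vector strain and from 6.65 to 6.66 in G12-CBS at 24 h. In both measures G12-CBS at 72 h thus lay nearer the empty-vector strain, and DS56 nearer G12-CBS at 24 h. The reason was not tested. Bright levels are widely spaced, so replicates of a bright row can share 1 value.

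The strains differed in 535 of 2390 rows (22.4%), of which 199 were higher in G12-CBS (8.33% of all rows) and 336 lower (14.1%). The difference reached 2-fold in 65 of the called rows, 30 of them higher and 35 lower. The median difference over all rows was -0.04. Among called rows 37.2% were higher, and this share was 47.6% under centring of the arrays on their medians and 47.2% under quantile normalization. Without DS56 replicate 2 the call count was 355, of which 126 were higher. In a test against a 1.2-fold change 160 rows were called, 65 higher and 95 lower.

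Of the 160 bright rows, with a mean over the 12 arrays of 8 or above, 85 were called (53.1%), 39 higher (24.4%) and 46 lower (28.7%). Of the 2230 dimmer rows, 450 were called (20.2%). Among the called bright rows 11 were at least 2-fold higher and 17 at least 2-fold lower. The groups did not overlap in 62.5% of the bright rows and in 38.2% of all rows. The 12-array mean includes the compared arrays, so a row near 8 can be bright through the strain where it is higher. This holds for either strain, as for TRR1 at 8.07, higher in G12-CBS, and TUB2 at 8.03, higher in DS56. The shares among bright rows are therefore not independent of the differences. No row has a detection flag, so a dim value cannot be told apart from background.

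**Figure D1:**
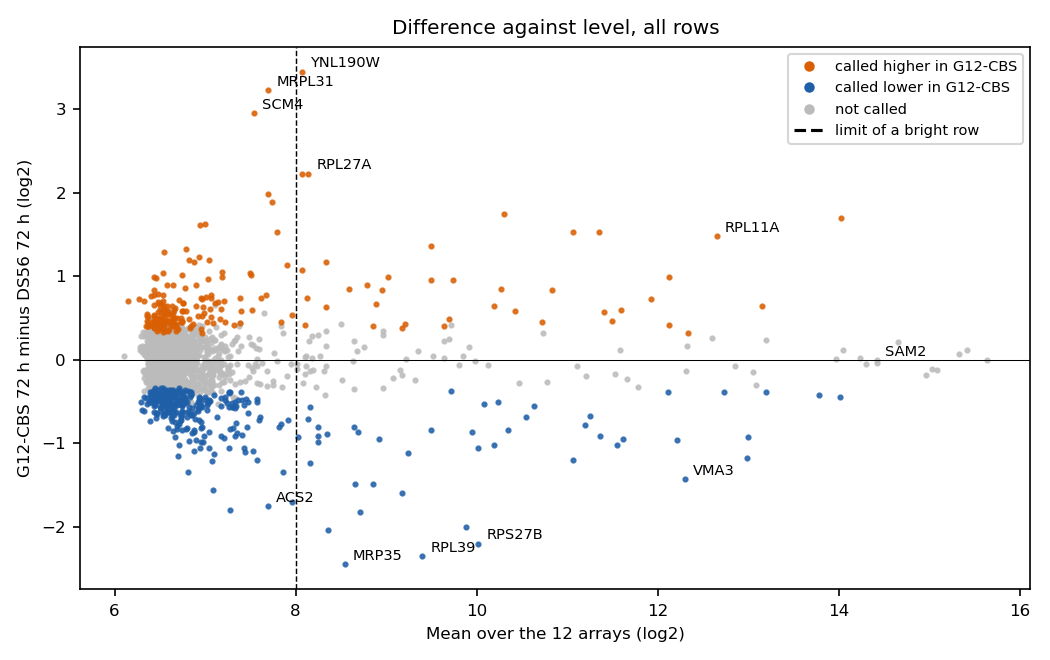
Difference between G12-CBS and DS56 at 72 h (log2, vertical axis) against the mean of the row over the 12 arrays (log2, horizontal axis), 1 point per row. Differences run from MRP35 at -2.45 to YNL190W at 3.45, while SAM2 at the top of the scale shows 0.00.

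The widest rise among bright rows was in YNL190W, which names a hydrophilin-like cell wall protein. Its 12-array mean of 8.07 reached the limit for a bright row only through the G12-CBS arrays at 72 h. Its values were 10.63, 10.45 and 10.48 in G12-CBS, against 7.30, 6.95 and 6.96 in DS56. The difference was 3.45 ± 0.14 (SE), a 10.9-fold higher level (limma adjusted p = 2.99e-13). The G12-CBS arrays at 72 h stood far above every other array of the series, since the empty-vector arrays lay between 7.32 and 7.60 and the G12-CBS arrays at 24 h between 7.09 and 7.45.

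DGK1, a diacylglycerol kinase of the nuclear and endoplasmic reticulum membrane, stood at 9.77, 9.47 and 9.40 in G12-CBS, against 7.47, 7.28 and 7.21 in DS56. It rose 4.68-fold (difference 2.23 ± 0.13, limma adjusted p = 1.35e-10). The groups did not overlap, and the empty-vector mean of 8.27 lay between them. Its 12-array mean of 8.07 rested on the G12-CBS arrays at 72 h, as the mean in G12-CBS at 24 h was 7.15.

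PAU23, PAU17 and PAU7 name seripauperins, small cell wall mannoproteins of S. cerevisiae. No list of this family was made, and its rows that did not rise were not counted. PAU23 had 11.51, 11.58 and 11.44 in G12-CBS, against 9.80, 9.71 and 9.77 in DS56 (difference 1.75 ± 0.11). PAU17 had 11.99, 12.16 and 11.85 in G12-CBS, against 10.55, 10.45 and 10.40 in DS56 (difference 1.53 ± 0.13). PAU7 differed by 0.95 ± 0.20, and its mean was 8.81 in the empty-vector strain and 9.84 in G12-CBS at 24 h. All 3 passed limma's test, with adjusted p of 5.06e-10, 2.39e-08 and 0.0016, and in none did the strains overlap. PAU5, named after its values were seen, differed by 0.43 ± 0.13 (limma adjusted p = 0.0234). The PAU5 call was lost without G12-CBS replicate 1 (limma adjusted p = 0.0708) or DS56 replicate 1 (0.0785) or 2 (0.0912), and against a 1.2-fold change. The family's members are close copies of each other, and whether these rows share signal was not tested.

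YHR007C-A, for which no role is given here, was among the brightest rows that rose. It had 14.24, 14.24 and 14.32 in G12-CBS, against 12.55, 12.42 and 12.73 in DS56, a 3.25-fold higher level (difference 1.70 ± 0.13, limma adjusted p = 6.38e-09). Its empty-vector mean was 15.21, above both strains.

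GTS1, linked to metabolic oscillations in S. cerevisiae, and MFA2, a precursor of the a-factor pheromone, were higher in G12-CBS with a wide spread. GTS1 had 10.29, 10.55 and 9.51 in G12-CBS, against 8.94, 8.52 and 8.81 in DS56 (difference 1.36 ± 0.22, limma adjusted p = 0.000152). MFA2 had 10.03, 10.40 and 9.24 in G12-CBS, against 9.14, 8.74 and 8.91 in DS56 (difference 0.96 ± 0.26, limma adjusted p = 0.0123). The third G12-CBS array was the lowest of that strain in both rows. The MFA2 call was lost without G12-CBS replicate 2 (limma adjusted p = 0.0707) and without DS56 replicate 2 (0.0943), and the row did not pass against a 1.2-fold change. ARP10, a dynactin component, differed by 0.99 ± 0.13 (limma adjusted p = 9.92e-06).

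**Figure D2:**
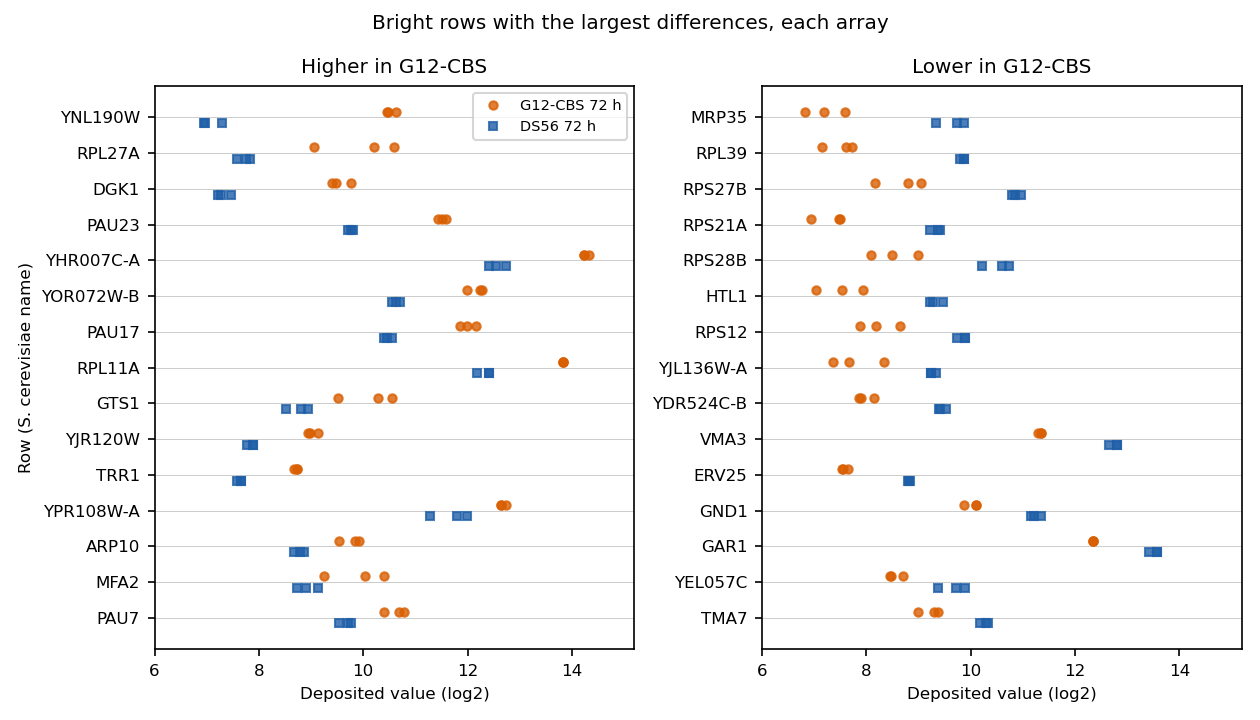
Deposited log2 values of each G12-CBS 72 h array (circles) and each DS56 72 h array (squares) for the 15 bright rows with the largest rise and the 15 with the largest fall among called rows whose groups do not overlap. VMA3, GAR1 and GND1 fell within bright, tightly grouped replicates, whereas RPL27A and RPS27B show a wider spread in G12-CBS.

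Cytosolic ribosomal proteins made up 52 of the 160 bright rows. Over both subunits 44 of 108 rows were called (40.7%, against 22.4% of all rows). Of these, 13 were higher in G12-CBS and 31 lower, and the median difference of the 108 rows was -0.16. Among the bright members 11 were higher, 15 lower and 26 not called, which is 50% called against 53.1% of all bright rows. The small subunit had 3 rows higher and 16 lower of 45, with a median of -0.32. The large subunit had 10 higher and 15 lower of 63, with a median of -0.11. Of all rows 8.33% were higher and 14.1% lower, but the ribosomal lists hold a larger part of bright rows, which were called more often. Against a 1.2-fold change the counts were 0 higher and 10 lower in the small subunit, and 5 higher and 8 lower in the large one. Without DS56 replicate 1 the large subunit had 6 rows higher.

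The deepest falls in the small subunit were in RPS27B, RPS21A, RPS28B and RPS12. RPS27B had 8.79, 8.17 and 9.05 in G12-CBS, against 10.79, 10.96 and 10.85 in DS56, a 4.59-fold lower level (difference -2.20 ± 0.16, limma adjusted p = 7.31e-09). RPS21A had 7.47, 6.94 and 7.49 in G12-CBS, against 9.37, 9.42 and 9.22 in DS56 (difference -2.04 ± 0.20). In every one of these 4 rows the second G12-CBS array was the lowest, and no G12-CBS value reached a DS56 value. RPS28B differed by -2.00 ± 0.22 and RPS12 by -1.60 ± 0.18, with limma adjusted p of 1.37e-06 and 2.19e-06. The empty-vector means lay between those of G12-CBS and DS56. They were 9.45 for RPS27B, 7.60 for RPS21A, 9.90 for RPS28B and 8.87 for RPS12. RPS21A in the empty-vector strain was thus near its G12-CBS mean of 7.30. In G12-CBS at 24 h the means were 11.11 for RPS27B, 9.19 for RPS21A, 10.59 for RPS28B and 9.72 for RPS12.

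In the large subunit RPL39, a very small protein at the exit tunnel, had 7.73, 7.15 and 7.60 in G12-CBS, against 9.87, 9.87 and 9.80 in DS56. It fell 5.1-fold (difference -2.35 ± 0.14, limma adjusted p = 3.63e-10), to a level below the empty-vector mean of 10.73 as well. RPL24A, which contacts the small subunit, differed by -0.99 ± 0.15 (limma adjusted p = 7.76e-05).

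Other large-subunit rows rose. RPL27A had 10.60, 9.05 and 10.21 in G12-CBS, against 7.59, 7.83 and 7.75 in DS56 (difference 2.23 ± 0.25, limma adjusted p = 1.55e-06). Its second G12-CBS array lay lowest, yet above all DS56 arrays. RPL27A was bright, with a 12-array mean of 8.14, only through the G12-CBS arrays at 72 h. Its other group means ran from 7.26 to 7.72. RPL11A, which binds the 5S rRNA, had 13.83 on all 3 G12-CBS arrays, against 12.42, 12.19 and 12.42 in DS56 (difference 1.48 ± 0.12, limma adjusted p = 1.38e-08). RPL11A had been lowest at 24 h in G12-CBS, with a mean of 10.90, and stood at 13.53 in the empty-vector strain.

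Many ribosomal proteins of S. cerevisiae are encoded by an A and a B copy, and 38 such pairs had both rows. Both copies were higher in 3 pairs and both lower in 4, while 16 pairs had a single copy called and 14 had neither. Both rows were bright in 10 pairs, and in 3 of those both copies rose: RPL11, RPL9 and RPS23. RPS23A and RPS23B, at the decoding centre, rose by 0.57 ± 0.11 and 0.46 ± 0.11, with limma adjusted p of 0.000818 and 0.00409, but neither passed against a 1.2-fold change. In the RPL9 pair, RPL9B, named after its values were seen, differed by 0.32 ± 0.11 (limma adjusted p = 0.0454). Its call was lost with the replicate block (limma adjusted p = 0.059), in a fit to the 6 arrays (0.0702), with array weights (0.0804), against a 1.2-fold change, and on leaving out any 1 of the 6 arrays (0.062 to 0.114).

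RPL40 was the pair called in opposite directions, and was singled out after its values were seen. Both copies encode a fusion of ubiquitin with the ribosomal protein. RPL40A had 13.58 on all 3 G12-CBS arrays, against 14.09, 14.09 and 13.83 in DS56 (difference -0.42 ± 0.12). RPL40B had 10.85, 11.08 and 11.08 in G12-CBS, against 10.45, 10.63 and 10.60 in DS56 (difference 0.45 ± 0.12). The limma adjusted p was 0.0144 for RPL40A and 0.0099 for RPL40B. The RPL40A call was lost without DS56 replicate 1 (limma adjusted p = 0.0688) or 2 (0.0588), and the RPL40B call without DS56 replicate 1 (0.0566). Neither passed against a 1.2-fold change.

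The 2 copies of RPS27 showed the widest gap between partners, at 2.52. RPS27A, a dim row with a mean of 6.90 over the 12 arrays, differed by 0.33 (limma adjusted p = 0.225), while RPS27B fell by 2.20. The copies encode nearly the same protein.

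**Figure D3:**
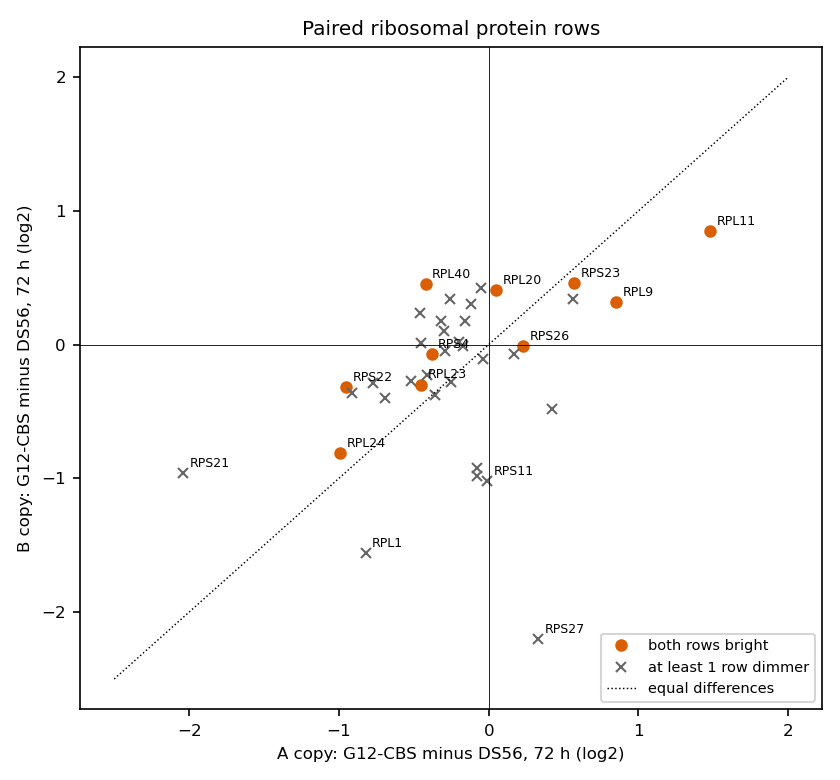
Difference of the B copy (log2, vertical axis) against that of the A copy (log2, horizontal axis) for 38 ribosomal protein pairs, with filled circles where both rows are bright and crosses where at least 1 is dimmer. RPL11, RPL9 and RPS23 lie in the upper right, RPL24 in the lower left, RPL40 in the upper left, and RPS27 lies far below the line of equal differences.

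Of 14 ribosome biogenesis rows 1 was higher, 5 were lower and 8 were not called (42.9% called, against 22.4% of all rows), with a median of -0.22. GAR1, a core protein of the H/ACA particles that direct pseudouridylation of rRNA, had 12.34 on all 3 G12-CBS arrays, against 13.58, 13.41 and 13.58 in DS56. It fell 2.27-fold (difference -1.18 ± 0.14, limma adjusted p = 3.77e-06). The GAR1 mean was 12.42 in the empty-vector strain and 13.67 in G12-CBS at 24 h. NOP1, the fibrillarin methyltransferase that uses SAM to methylate rRNA, had 11.58, 11.44 and 11.58 in G12-CBS, against 12.47, 12.55 and 12.47 in DS56 (difference -0.96 ± 0.11, limma adjusted p = 2.86e-06). In neither row did the strains come close to overlap. Without G12-CBS replicate 2 the list had 3 rows lower, and the single higher row, CBF5, was not called without G12-CBS replicate 3 (limma adjusted p = 0.095) or DS56 replicate 1 (0.0767) or 3 (0.0567), nor against a 1.2-fold change.

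Translation factors had 2 rows higher and 3 lower of 24, or 20.8% called against 22.4% of all rows. EFT2, elongation factor 2, had 11.01, 10.85 and 10.71 in G12-CBS, against 11.16, 11.85 and 11.58 in DS56 (difference -0.67 ± 0.15, limma adjusted p = 0.00252). The highest G12-CBS array lay close below the lowest DS56 array, and the row did not pass against a 1.2-fold change. TMA7, a small protein associated with the translation machinery but not in this list, differed by -1.05 ± 0.13 (limma adjusted p = 3.97e-06).

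Core histones, the proteins that package DNA, all had bright rows, and 2 of 7 were higher in G12-CBS and 0 lower (28.6% called, against 53.1% of bright rows), with a median of 0.24. With trend and robust moderation 4 were higher. HHT2, histone H3, had 8.50, 8.67 and 8.43 in G12-CBS, against 7.83, 7.92 and 7.97 in DS56 (difference 0.63 ± 0.12, limma adjusted p = 0.000597). HTA1, histone H2A, had 9.92, 10.00 and 10.03 in G12-CBS, against 9.56, 9.56 and 9.37 in DS56 (difference 0.49 ± 0.11, limma adjusted p = 0.00446). HTA1 did not pass against a 1.2-fold change. The other copy of histone H3, HHT1, had a difference of -0.15 and was not called (limma adjusted p = 0.398). HTL1, a subunit of the RSC chromatin remodeller, had 7.03, 7.94 and 7.53 in G12-CBS, against 9.22, 9.27 and 9.47 in DS56 (difference -1.82 ± 0.18, limma adjusted p = 4.62e-07).

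Of 24 rows of sulfur amino acid metabolism and the methyl cycle, 1 was higher in G12-CBS and 7 were lower (33.3% called, against 22.4% of all rows), with a median of -0.09. The lower rows named enzymes of SAM formation, homocysteine release, cysteine formation, sulfite reduction and folate metabolism and a transcription factor, and the higher row, STR3, makes homocysteine from cystathionine. Only SAM1 among the called rows was bright, narrowly with a 12-array mean of 8.14 that includes the higher DS56 arrays. Against a 1.2-fold change the list had 1 row higher and 2 lower. Without G12-CBS replicate 2 there were 2 rows higher, and without G12-CBS replicate 3 there were 3 higher and 4 lower. Without DS56 replicate 1 or DS56 replicate 2 there were 3 lower.

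SAM1 and SAM2 are the SAM synthetases of S. cerevisiae and near-identical copies. Whether their rows share signal with each other or with the recombinant gene was not tested. SAM2 read 15.76, the highest value in the table, on all 6 arrays, so the strains cannot be ranked on it. SAM1 had 8.00, 8.02 and 8.12 in G12-CBS, against 8.74, 8.94 and 8.57 in DS56 (difference -0.71 ± 0.16, limma adjusted p = 0.00311). The strains did not overlap, but the row did not pass against a 1.2-fold change. The empty-vector strain, without the recombinant gene, had means of 10.47 for SAM2 and 7.06 for SAM1.

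SAH1, S-adenosylhomocysteine hydrolase, releases homocysteine after methyl transfer. It had 7.31, 7.27 and 7.26 in G12-CBS, against 7.86, 8.19 and 8.18 in DS56, a 1.74-fold lower level (difference -0.80 ± 0.13, limma adjusted p = 0.000199). The G12-CBS values at 72 h were below all others in the series, with means of 7.94 in the empty-vector strain and 7.99 in G12-CBS at 24 h. MET6, methionine synthase, which remethylates homocysteine, differed by -0.17 and was not called (limma adjusted p = 0.358).

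In the transsulfuration branches STR3, cystathionine beta-lyase, had 7.04, 7.34 and 7.69 in G12-CBS, against 6.37, 6.30 and 6.27 in DS56. It was higher in G12-CBS (difference 1.04 ± 0.14, limma adjusted p = 1.99e-05). The DS56 values lie below the array medians, so no fold is given, and the empty-vector mean of 6.19 and the 24 h mean of 6.29 were as low. CYS3, cystathionine gamma-lyase, which takes the product of CYS4 on to cysteine, had 6.12, 6.25 and 6.07 in G12-CBS, against 6.55, 6.65 and 6.50 in DS56 (difference -0.42 ± 0.13, limma adjusted p = 0.0242). The CYS3 call was lost under quantile normalization (limma adjusted p = 0.0638), against a 1.2-fold change, and without G12-CBS replicate 1 (0.056) or 3 (0.0659) or DS56 replicate 1 (0.0637) or 2 (0.0964). STR2, cystathionine gamma-synthase, differed by 0.26 (limma adjusted p = 0.197). GSH1, which starts glutathione synthesis, differed by -0.38 with a limma adjusted p of 0.0579.

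The folate enzymes supply the methyl group for methionine. ADE3, the cytosolic C1-tetrahydrofolate synthase, had 6.76, 6.42 and 6.20 in G12-CBS, against 7.16, 7.42 and 7.31 in DS56 (difference -0.84 ± 0.14, limma adjusted p = 0.000177). SHM2, serine hydroxymethyltransferase, had 6.39, 6.18 and 6.37 in G12-CBS, against 6.94, 7.05 and 6.69 in DS56 (difference -0.58 ± 0.17, limma adjusted p = 0.0154). Groups were separate in both rows. The SHM2 call was lost without G12-CBS replicate 2 (limma adjusted p = 0.0544) or DS56 replicate 1 (0.057) or 2 (0.0985), and against a 1.2-fold change.

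Sulfate assimilation and its regulators were measured near the bottom of the scale. MET32, a zinc finger activator of the sulfur genes, differed by -0.47 ± 0.14 (limma adjusted p = 0.0231), and its call was lost without G12-CBS replicate 3 (0.0728) or DS56 replicate 1 (0.067) or 2 (0.116), and against a 1.2-fold change. MET10, a sulfite reductase subunit, differed by -0.34 ± 0.12 (limma adjusted p = 0.0457). The MET10 call was lost in every alternative fit that held the row, which was itself among the dimmest 25% removed in another, with limma adjusted p from 0.0636 to 0.122 when 1 array was left out. MET17, the O-acetylhomoserine sulfhydrylase, differed by -0.12 (limma adjusted p = 0.567) and MET4, the main activator, by 0.15 (0.466). Of the 4 rows of SAM-consuming pathways, SPE2, SPE3, SPE4 and ERG6, 0 were called by limma, and 1 had an unadjusted p under 0.05. Their limma adjusted p lay between 0.139 and 0.352, and their differences between -0.35 and 0.27. Of all rows 22.4% were called, so 4 rows are too few to show that these pathways were unchanged.

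**Figure D4:**
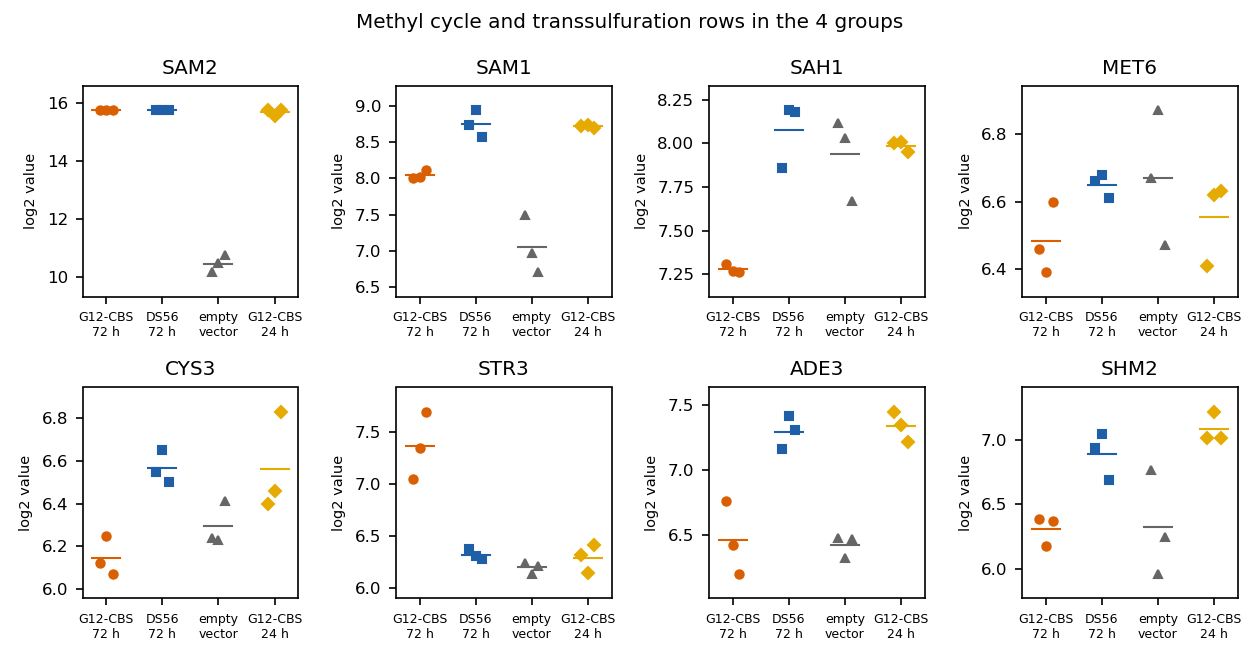
Deposited log2 values of 8 methyl cycle and transsulfuration rows on each array, with a line at the group mean, for G12-CBS at 72 h, DS56 at 72 h, the empty-vector strain at 72 h and G12-CBS at 24 h. The vertical axes differ between panels and do not start at 0. SAH1 is lowest and STR3 highest in G12-CBS at 72 h, and SAM2 reads 15.76 on all arrays of both producers at 72 h.

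MRPL31 and MRP35 both name proteins of the large mitochondrial ribosomal subunit. MRPL31, a dimmer row by its mean, had 9.87, 10.11 and 10.17 in G12-CBS, against 6.96, 6.76 and 6.76 in DS56 (difference 3.23 ± 0.13, limma adjusted p = 2.99e-13). MRP35 had 7.59, 6.82 and 7.19 in G12-CBS, against 9.74, 9.34 and 9.87 in DS56 (difference -2.45 ± 0.19, limma adjusted p = 8.68e-09). The MRP35 mean was 7.49 in the empty-vector strain and 9.80 in G12-CBS at 24 h, and that of MRPL31 was 7.17 and 6.77. Both differences were far wider than the spread of the replicates. Over the mitochondrial ribosome 5 of 31 rows were higher and 3 lower, with a median of 0.01, and the share called of 25.8% was near the 22.4% of all rows.

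Among 22 rows of the respiratory chain and ATP synthase 3 were higher and 6 lower (40.9% called, against 22.4% of all rows), with a median of -0.16. ATP2, the catalytic beta subunit of ATP synthase, had 12.55, 12.55 and 12.47 in G12-CBS, against 13.26, 13.69 and 13.41 in DS56 (difference -0.93 ± 0.12, limma adjusted p = 1.36e-05). ATP1, the alpha subunit, had 11.28, 10.76 and 10.96 in G12-CBS, against 11.85, 11.99 and 11.90 in DS56 (difference -0.91 ± 0.15, limma adjusted p = 0.000133). The 2 subunits of the catalytic head thus fell by similar amounts.

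TIM11, subunit e of the same enzyme, which takes part in its dimerisation, had 9.22, 9.24 and 8.72 in G12-CBS, against 7.21, 7.08 and 7.21 in DS56 (difference 1.89 ± 0.14, limma adjusted p = 5.08e-09). PET9, the ADP/ATP carrier, rose by 0.59 ± 0.13 (limma adjusted p = 0.00301) but did not pass against a 1.2-fold change. SCM4, a protein of the mitochondrial outer membrane, had 9.89, 9.59 and 9.80 in G12-CBS, against 6.72, 6.81 and 6.89 in DS56 (difference 2.95 ± 0.13, limma adjusted p = 1.04e-12). SCM4 stayed at means of 6.84 in the empty-vector strain and 6.76 in G12-CBS at 24 h.

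COX5A and COX5B, singled out after their values were seen, are the aerobic and hypoxic isoforms of subunit V of cytochrome c oxidase in S. cerevisiae. COX5A had 7.05, 6.74 and 7.22 in G12-CBS, against 6.52, 6.33 and 6.12 in DS56 (difference 0.68 ± 0.14, limma adjusted p = 0.00166). COX5B had 8.04, 8.36 and 8.36 in G12-CBS, against 8.98, 9.22 and 9.14 in DS56 (difference -0.86 ± 0.13, limma adjusted p = 5.09e-05). The isoforms went in opposite directions, and COX5A did not pass against a 1.2-fold change.

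Of 16 rows of the TCA and glyoxylate cycles and their acetyl-CoA supply, 1 was higher and 7 were lower (50% called, against 22.4% of all rows), with a median of -0.35. ACS2, an acetyl-CoA synthetase, had 7.09, 6.61 and 6.46 in G12-CBS, against 8.41, 8.53 and 8.45 in DS56 (difference -1.75 ± 0.15, limma adjusted p = 7.62e-08). The ACS2 mean was 7.14 in the empty-vector strain and 8.43 in G12-CBS at 24 h. MDH3, the peroxisomal malate dehydrogenase, had 6.08, 6.04 and 6.33 in G12-CBS, against 7.56, 7.34 and 7.57 in DS56 (difference -1.34 ± 0.13, limma adjusted p = 1.64e-07). Groups were well apart in both rows. The other called rows changed less: the count of lower rows was 4 in a fit to the 6 arrays, after median centring and after quantile normalization, and 3 against a 1.2-fold change. It was also 4 without DS56 replicate 1 or G12-CBS replicate 3, and 3 without DS56 replicate 3 or G12-CBS replicate 1. The single higher row, ACS1, was not called without any 1 of the 3 DS56 replicates, with limma adjusted p from 0.0517 to 0.125, or without G12-CBS replicate 3 (0.147), nor in a fit to the 6 arrays (0.0702) or with array weights (0.0605).

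In glycolysis, gluconeogenesis and the pentose phosphate pathway 3 rows were higher and 3 lower of 25, and the share called of 24% was near the 22.4% of all rows. GND1, the 6-phosphogluconate dehydrogenase that yields NADPH, had 10.11, 9.87 and 10.11 in G12-CBS, against 11.21, 11.34 and 11.16 in DS56 (difference -1.20 ± 0.12, limma adjusted p = 2.68e-07). TDH2, glyceraldehyde-3-phosphate dehydrogenase, had 12.19, 12.27 and 12.23 in G12-CBS, against 11.51 on all DS56 arrays (difference 0.73 ± 0.11, limma adjusted p = 5.75e-05). Both changes exceeded the spread of the replicates. PGK1, phosphoglycerate kinase, rose by 0.42 ± 0.12 (limma adjusted p = 0.0183). Its call was lost without DS56 replicate 2 (limma adjusted p = 0.0844) and against a 1.2-fold change.

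Methanol is oxidised to formaldehyde and hydrogen peroxide, and 2 of the 4 rows of its dissimilation were lower and 0 higher, against 14.1% and 8.33% of all rows. CTT1, a catalase, had 10.55, 10.48 and 10.63 in G12-CBS, against 11.34, 11.58 and 11.08 in DS56 (difference -0.78 ± 0.14, limma adjusted p = 0.000505). SFA1, the formaldehyde dehydrogenase, had 6.13, 6.23 and 6.23 in G12-CBS, against 6.71, 6.68 and 6.68 in DS56 (difference -0.49 ± 0.12, limma adjusted p = 0.00513). The strains were separate in both rows, though SFA1 is dim and did not pass against a 1.2-fold change.

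Among 11 redox rows 3 were higher and 2 lower (45.5% called, against 22.4% of all rows). The 3 higher rows were bright, TRR1 narrowly with a 12-array mean of 8.07, and 24.4% of all bright rows were higher. That share includes rows that were bright through the G12-CBS arrays at 72 h. TRR1, cytosolic thioredoxin reductase, had 8.74, 8.74 and 8.67 in G12-CBS, against 7.59, 7.66 and 7.66 in DS56 (difference 1.08 ± 0.11, limma adjusted p = 5.3e-07). TSA1, a thioredoxin-dependent peroxidase, averaged 9.52 ± 0.20 in G12-CBS, against 8.68 ± 0.29 in DS56 (SD, n = 3 each, difference 0.84 ± 0.15, limma adjusted p = 0.000279). AHP1, another thioredoxin peroxidase, had 12.16, 11.99 and 11.92 in G12-CBS, against 11.58, 11.01 and 11.67 in DS56 (difference 0.60 ± 0.16, limma adjusted p = 0.0113). These 3 encode parts of the cytosolic thioredoxin system, and in each the G12-CBS arrays all lay above the DS56 arrays. The empty-vector means also lay above the DS56 means, at 8.20 for TRR1, 9.18 for TSA1 and 11.85 for AHP1. In G12-CBS at 24 h the means were 7.74 for TRR1, 8.43 for TSA1 and 11.05 for AHP1. The AHP1 call was lost without DS56 replicate 2 (limma adjusted p = 0.0949) and against a 1.2-fold change. PRX1, the mitochondrial peroxiredoxin, was instead lower (difference -0.91 ± 0.17, limma adjusted p = 0.000513). The other lower row, GRX2, a glutaredoxin, was not called without G12-CBS replicate 1 (limma adjusted p = 0.1) or DS56 replicate 2 (0.0807) or 3 (0.115), nor under quantile normalization (0.0787), median centring (0.0553) or the 1.2-fold limit.

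Proton pumps had 1 row higher and 3 lower of 8 (50% called, against 22.4% of all rows). VMA3, the proteolipid ring subunit of the vacuolar ATPase, had 11.34, 11.28 and 11.34 in G12-CBS, against 12.80, 12.80 and 12.65 in DS56, a 2.7-fold lower level (difference -1.43 ± 0.11, limma adjusted p = 1.35e-08). PMA1, the plasma membrane proton pump, had 10.45, 10.21 and 10.23 in G12-CBS, against 10.85, 10.79 and 10.90 in DS56 (difference -0.55 ± 0.12, limma adjusted p = 0.00251). Neither pair of groups overlapped, and PMA1 did not pass against a 1.2-fold change. The remaining called rows are dim and were named after their values were seen. VPH1, a subunit of the membrane sector of the vacuolar ATPase, rose by 0.52 ± 0.13 (limma adjusted p = 0.00544), and did not pass against a 1.2-fold change. PMA2, a minor form of PMA1, differed by -0.46 ± 0.15 (limma adjusted p = 0.03), and its groups overlapped. The PMA2 call was lost in the 6-array fit (limma adjusted p = 0.0594), under quantile normalization (0.0618), median centring (0.0523) or the 1.2-fold limit, and without G12-CBS replicate 1 (0.127) or 2 (0.0775) or DS56 replicate 1 (0.145) or 2 (0.0951).

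Secretory rows were lower in 4 of 10 cases and higher in 1 (50% called, against 22.4% of all rows). ERV25, a p24 cargo protein of vesicles between the endoplasmic reticulum and the Golgi, had 7.64, 7.55 and 7.53 in G12-CBS, against 8.81, 8.84 and 8.79 in DS56 (difference -1.24 ± 0.14, limma adjusted p = 1.84e-06). Its p24 partner EMP24, named after its values were seen, differed by -0.49 ± 0.12 (limma adjusted p = 0.00692) and did not pass against a 1.2-fold change. The dimmer YIP3, a Golgi vesicle protein that is not in this list, differed by -1.70 ± 0.17 (limma adjusted p = 2.82e-07). The single higher row, OST1, an oligosaccharyltransferase subunit, was not called without G12-CBS replicate 1 (limma adjusted p = 0.0684) or DS56 replicate 3 (0.0561), and did not pass against a 1.2-fold change.

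Chaperones had 2 rows higher and 7 lower of 33 (27.3% called, against 22.4% of all rows), with a median of -0.16. SIS1, a J-domain partner of Hsp70, had 9.71, 9.82 and 9.94 in G12-CBS, against 10.34, 10.29 and 10.34 in DS56 (difference -0.50 ± 0.13, limma adjusted p = 0.00759). The list had 3 rows lower without DS56 replicate 2, 4 without DS56 replicate 1 or G12-CBS replicate 1, and 1 against a 1.2-fold change, which SIS1 did not pass. The proteasome had 1 row higher and 4 lower of 15 (33.3% called, against 22.4% of all rows). Its count of lower rows was 2 without any 1 of the DS56 replicates, without G12-CBS replicate 2 or 3, in a fit to the 6 arrays and after median centring, and 0 against a 1.2-fold change.

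TUB2, beta tubulin, averaged 7.52 ± 0.13 in G12-CBS, against 8.45 ± 0.07 in DS56 (SD, n = 3 each, difference -0.93 ± 0.12, limma adjusted p = 8.81e-06). It was 1 of 2 lower cytoskeleton rows of 4, while 14.1% of all rows were lower, and 2 of the 4 rows were bright. The other, PFY1 (profilin), was not called when any replicate other than G12-CBS replicate 1 was left out, with limma adjusted p from 0.055 to 0.161, nor under quantile normalization (0.0796), median centring (0.0692) or array weights (0.054). Of the 7 rows of mitochondrial protein import, 0 were called by limma and 1 had an unadjusted p under 0.05. Of the 8 rows of the peroxisome and fatty acid oxidation, 0 were called and 2 had an unadjusted p under 0.05. Over all rows 22.4% were called, and 858 of 2390 had an unadjusted limma p under 0.05. Lists this short cannot show that these functions were unchanged.

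**Figure D5:**
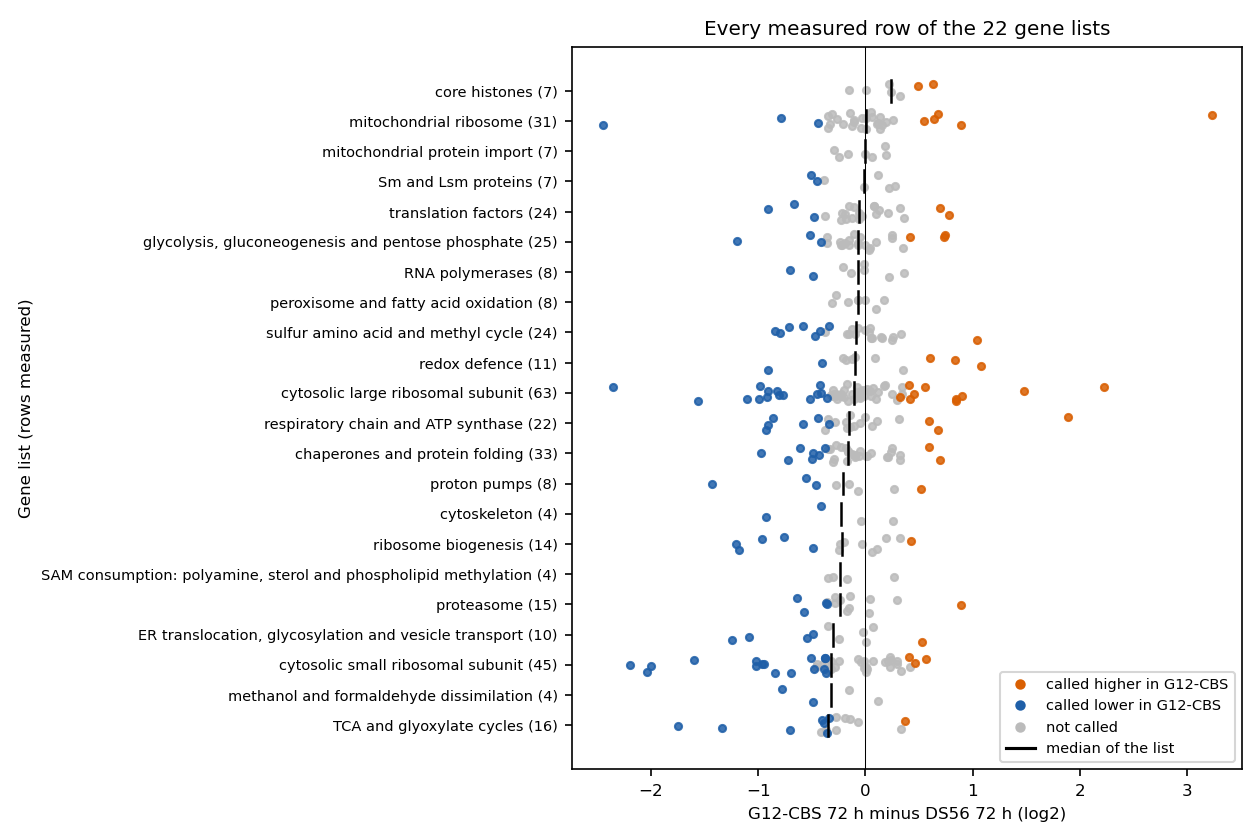
Difference between G12-CBS and DS56 at 72 h (log2, horizontal axis) for each row of 22 gene lists, 1 point per row, with the list median as a black bar and the lists ordered by it. Medians run from -0.35 for the TCA and glyoxylate cycles to 0.24 for core histones, and most lists hold called rows on both sides of 0.

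Among the dimmer rows with the widest changes outside these lists, GDH2, the NAD-dependent glutamate dehydrogenase, averaged 9.13 ± 0.34 in G12-CBS, against 7.14 ± 0.10 in DS56 (SD, n = 3 each, difference 1.98 ± 0.17, limma adjusted p = 3.35e-08). CTL1, an RNA triphosphatase, differed by 1.62 ± 0.15 (limma adjusted p = 1.07e-07). YSA1, which hydrolyses ADP-ribose, had 6.33, 6.26 and 6.70 in G12-CBS, against 8.22, 8.36 and 8.09 in DS56 (difference -1.80 ± 0.16, limma adjusted p = 1.07e-07). The YSA1 mean was 6.53 in the empty-vector strain and 7.91 in G12-CBS at 24 h. PTC1, a type 2C protein phosphatase, differed by -1.34 ± 0.14 (limma adjusted p = 8.28e-07). No value of either strain crossed into the other's range in any of these 4 rows.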

How the data were processed

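Total RNA of 12 cultures was labelled with Cy3 and measured on 12 one-colour NimbleGen arrays, per the labels' protocols. The deposited values are log2, 1 per row and array, and the submitters' processing notes name RMA, with no version given. No source used here states whether rows were removed earlier. The design text gives 5777 genes an array, and genes beyond the 2390 rows were not analysed here.

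One model of the 4 groups over the 12 arrays was fitted by lmFit and eBayes of limma 3.58.1 (R 4.3.3), with no replicate block and two-sided p-values adjusted by Benjamini-Hochberg over 2390 rows. SE is limma's moderated standard error and SD the spread of 3 arrays. The p-values set a difference against 1 spread per row, pooled over the cultures of all 4 groups and moderated by limma. Where G12-CBS at 72 h spread more widely than the other groups, the SE can be too small. RPL27A, with an SD of 0.81 in G12-CBS and 0.13 in DS56, has an SE of 0.25. The number of arrays limits the precision, and no scanner files, slides or scan dates were used here. Replicate numbers do not pair the cultures: deviations of same-numbered arrays of the strains correlated at 0.01, -0.05 and -0.02.

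The 22 lists name 657 S. cerevisiae open reading frames, 390 with a row. They, the symbols and the comparison were chosen with earlier results of these data known. Lists are described by counts and medians and were not tested. Rows were named by a rule. Of called rows without overlap it took the 15 largest rises and 15 largest falls among bright rows and 5 each among dimmer ones. From the same rows it took up to 2 in each direction among bright members of a list. It added SAM1, SAM2, CYS4 and every called sulfur row, but CYS4 has no row among those read. Some rows under that rule are shown in the plots only. Rows outside it were chosen after their values were seen. The model was tested on simulated data. Alternatives were a replicate block, the 6 arrays alone, quantile normalization, median centring, removal of the dimmest 25% of rows, treat with a limit of 1.2-fold, array weights, trend and robust moderation, other limits for a bright row and leaving out each of the 6 arrays compared. Names were matched with GenomicFeatures 1.54.1, and plots drawn with matplotlib 3.10.9.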

Additional observations from a re-analysis of the deposited data

How the results depend on the processing

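Of 2326 alternative fits of 167 rows, 2018 kept their side of the threshold and 308 lost the call. No row reversed its direction, but a reversal could hardly occur. The rows were followed mostly because they were called, nearly all with separate groups, and several settings leave the difference itself unchanged. Of 166 rows called, 78 lost the call in a test against a 1.2-fold change, 53 on leaving out at least 1 of the arrays in turn, and 22 under at least 1 of the remaining settings. Against a 1.2-fold change 160 rows were called, 65 higher and 95 lower, and 55 bright rows, 23 of them higher. This test is stricter by construction. With 9 as the limit for a bright row, which leaves fewer rows, 56 bright rows were called, 30 of them lower. Leaving out 1 of the 6 arrays compared gave 355 to 514 called rows, with 126 to 198 higher and 229 to 323 lower. It gave 72 to 84 bright rows called, with 32 to 37 higher and 40 to 47 lower. The lowest total came without DS56 replicate 2, and the cause was not tested. The fit with the replicate block called 534 rows, 196 higher and 338 lower, and 85 bright rows. Centring on the median and quantile normalization each moved the median difference by 0.05. Apart from the median centring, quantile and 6-array fits, the alternatives for list counts were chosen after seeing the data. Identical values at bright levels and the missing detection flags limit what small differences can show.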

Other observations

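GLN1 and GNP1 lie outside the lists and were chosen after their values were seen. GLN1, glutamine synthetase, had 10.90, 11.21 and 10.90 in G12-CBS, against 12.06, 12.23 and 11.80 in DS56 (difference -1.02 ± 0.14, limma adjusted p = 1.43e-05). GNP1, a glutamine permease, had 9.24, 9.14 and 9.10 in G12-CBS, against 8.45, 8.47 and 8.54 in DS56 (difference 0.67 ± 0.11, limma adjusted p = 0.000199). The groups were separate in both rows.

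Further bright rows chosen in the same way were lower in G12-CBS. STM1, a ribosome-associated protein, had 9.08, 9.08 and 8.81 in G12-CBS, against 9.84, 9.80 and 9.84 in DS56 (difference -0.84 ± 0.13, limma adjusted p = 5.85e-05). CDC60, the cytosolic leucyl-tRNA synthetase, had 9.27, 9.84 and 10.29 in G12-CBS, against 10.68, 10.68 and 10.55 in DS56 (difference -0.84 ± 0.18, limma adjusted p = 0.00183). UBI4, the polyubiquitin gene, differed by -0.91 ± 0.20 (limma adjusted p = 0.00311). The G12-CBS arrays spread widely in CDC60 and UBI4, yet none reached the DS56 arrays. YHM2, a mitochondrial citrate and oxoglutarate carrier, differed by -0.86 ± 0.13 (limma adjusted p = 6.6e-05).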
